A study of Glycine max with 23 samples.

Results

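The deposited table of soybean small RNAs holds sequences of 21 nt (nucleotides) that carry only a locus number and no miRNA name, and that stand at a single position of the genome. Of 742 such sequences, 119 had a mean of 5 TP5M or more over the 23 libraries, where TP5M is the signal scaled by the authors to tags per 5000000 sequenced tags. These 119 unnamed 21 nt sequences are described here. They are 119 of the 595 distinct sequences that reached that mean, of 2839 distinct sequences in all. The mean level, the length, the lack of a name and the single locus chose them, so these properties are given as description and were not tested. The last 3 above the limit were M6392-3p (mean 5.11 TP5M), M0024-3p (5.09) and M0529-3p (5.04), and the first 3 below it were M5256-3p (4.83), M2874-3p (4.82) and M1870-3p (4.80).

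The libraries came from untreated plants of Glycine max cv. Williams 82, the soybean line of the reference genome, grown at an experimental station. There were 3 seed libraries (weeks 6, 8 and 10), 3 of pods (weeks 1, 2 and 3), 5 of flowers (the flower bud, the bud just before flowering, 2 dates of florescence, and the flower 5 days later), 2 of cotyledons (germination and the trefoil stage) and 6 of leaves (a new leaf from germination, a new and an old one from each of the trefoil stage and flower bud differentiation, and a senescent leaf). A leaf bud, 2 stems (germination and trefoil) and a germination root had 1 library per stage. The libraries of an organ differ in stage, in leaf age or, for florescence, in date. Every SD and p-value below therefore measures the spread between such libraries and not between repeated plants. In whole organs, fewer cells of a type and less RNA per cell cannot be told apart.

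In plants a miRNA is cut from a folded precursor, the hairpin, as a duplex of its 5p and 3p arms, which leaves short overhangs at both ends. One strand is usually kept in an Argonaute protein, and the first base takes part in the choice: AGO1 favours U, AGO2 favours A and AGO5 favours C. The strand that is kept guides the cleavage or silencing of mRNAs to which it pairs closely, while the opposite strand is commonly degraded.

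The 6 most abundant of the 119 are shown first because they carry much of the signal. They are written 5′ to 3′ with T for U as in the table, and the capitals mark bases 2 to 8.
M4779-5p: aGAGGTGTatggagtgagaga
M0530-5p: gGAATGGGctgattgggaagc
M1663-3p: gGAGGCGTagatactcacacc
M5463-3p: aGCTGCTCatctgttctcagg
M6191-5p: aGAGATGTatggagtgagaga
M7043-5p: gGAATGGGctgattgggaagt
The table places their hairpins, in a genome build not given in the sources used here, at chr13:25849778-25849886 (plus strand), chr2:7783821-7783913 (plus), chr4:28532444-28532532 (minus), chr15:4318773-4318876 (plus), chr17:6190601-6190709 (plus) and chr18:61452907-61452997 (minus), in the same order. Gene annotation of that build was not used here. M4779-5p and M6191-5p lie on hairpins of miR1507 and M0530-5p and M7043-5p on hairpins of miR482, both families known to target NLR disease resistance genes. M1663-3p lies on a hairpin of miR2109, another family of that kind in legumes, and M5463-3p on one of miR3522. Bases 2 to 8 took 112 forms among the 119 sequences. Only 6 forms were held by more than 1 of them, 13 sequences in all, and 26 of the 119 shared the form with a named sequence.

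Total tags per library, recovered from the value of 1 read, were lowest in the leaf bud (3.63, in units of 1e6 tags) and highest in the germination cotyledon (6.74). A value of 0 therefore allows up to 2.22 to 4.14 TP5M (3 reads), counting error only. The 119 sequences took between 5.02% (new leaf at germination) and 20.0% (senescent leaf) of the table's summed signal, with a median of 8.85% over libraries. A set of 6 libraries was picked after the values were seen, and no other set was counted. Old trefoil leaf, both leaves at flower bud differentiation and all 3 pods held 15 distinct sequences at 20 TP5M or more in at least 1 of them and at 0 in the other 17 libraries. Some of the 15 were in 1 library alone, as miR1511 was in the week 2 pod (766 TP5M). Of these 15, M2634-5p, M0223-3p and M0024-3p are among the 119. All pods are in the set and no seed or flower is, so for a sequence seen in pods alone the pod and the set cannot be told apart, and counts with a term for the 6 libraries stand beside each comparison. Leaf is the only organ with libraries both inside and outside the set. The term is therefore estimated from leaves alone and carried over to pods, where its size cannot be checked.

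M2634-5p and M0223-3p are shown because of that pattern, with M5881-3p, which also matches the box A motif, an inner promoter element of tRNA genes. The capitals mark the match, searched on the strand of the sequence.
M2634-5p: gaccgcaTAGCGCAGTGGatt
M0223-3p: ggtcccgTAGCTCAGTTGgtt
M5881-3p: gggcgTAGTAGAGGTGggaga
The hairpins lie at chr7:451482-451578 (minus), chr1:50375791-50375998 (plus) and chr16:10479135-10479459 (plus). Box A matched 25 of the 2839 distinct sequences, and 5 of the 15 found only in the 6 libraries. M2634-5p had 71.7, 81.6 and 87.1 TP5M in the pods of weeks 1, 2 and 3, 844 in old trefoil leaf and 68.9 in new leaf at flower bud differentiation, and was at 0 in the other 18 libraries. M0223-3p had 236 and 137 TP5M in the pods of weeks 1 and 2, 478 in old trefoil leaf and 156 in new leaf at flower bud differentiation. M5881-3p was not limited in this way and was above 0 in 22 libraries, up to 47.1 TP5M in the week 3 pod.

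The levels of the 119 sequences were very unequal. Means reached 1000 TP5M for 12 of them and stayed under 10 for 29, and the 10 most abundant held 75.3% of their summed signal. M4779-5p averaged 10143 TP5M, M0530-5p 6099, M1663-3p 3860, M5463-3p 3471, M6191-5p 3206 and M7043-5p 2688. They were followed by M5467-3p (2618, related to miR4996), M6710-5p (1516, with no link to a named miRNA), M2090-3p (1333, of miR166, whose main product targets HD-ZIP III genes) and M3452-5p (1193, of miR1507).

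**Figure D1:**
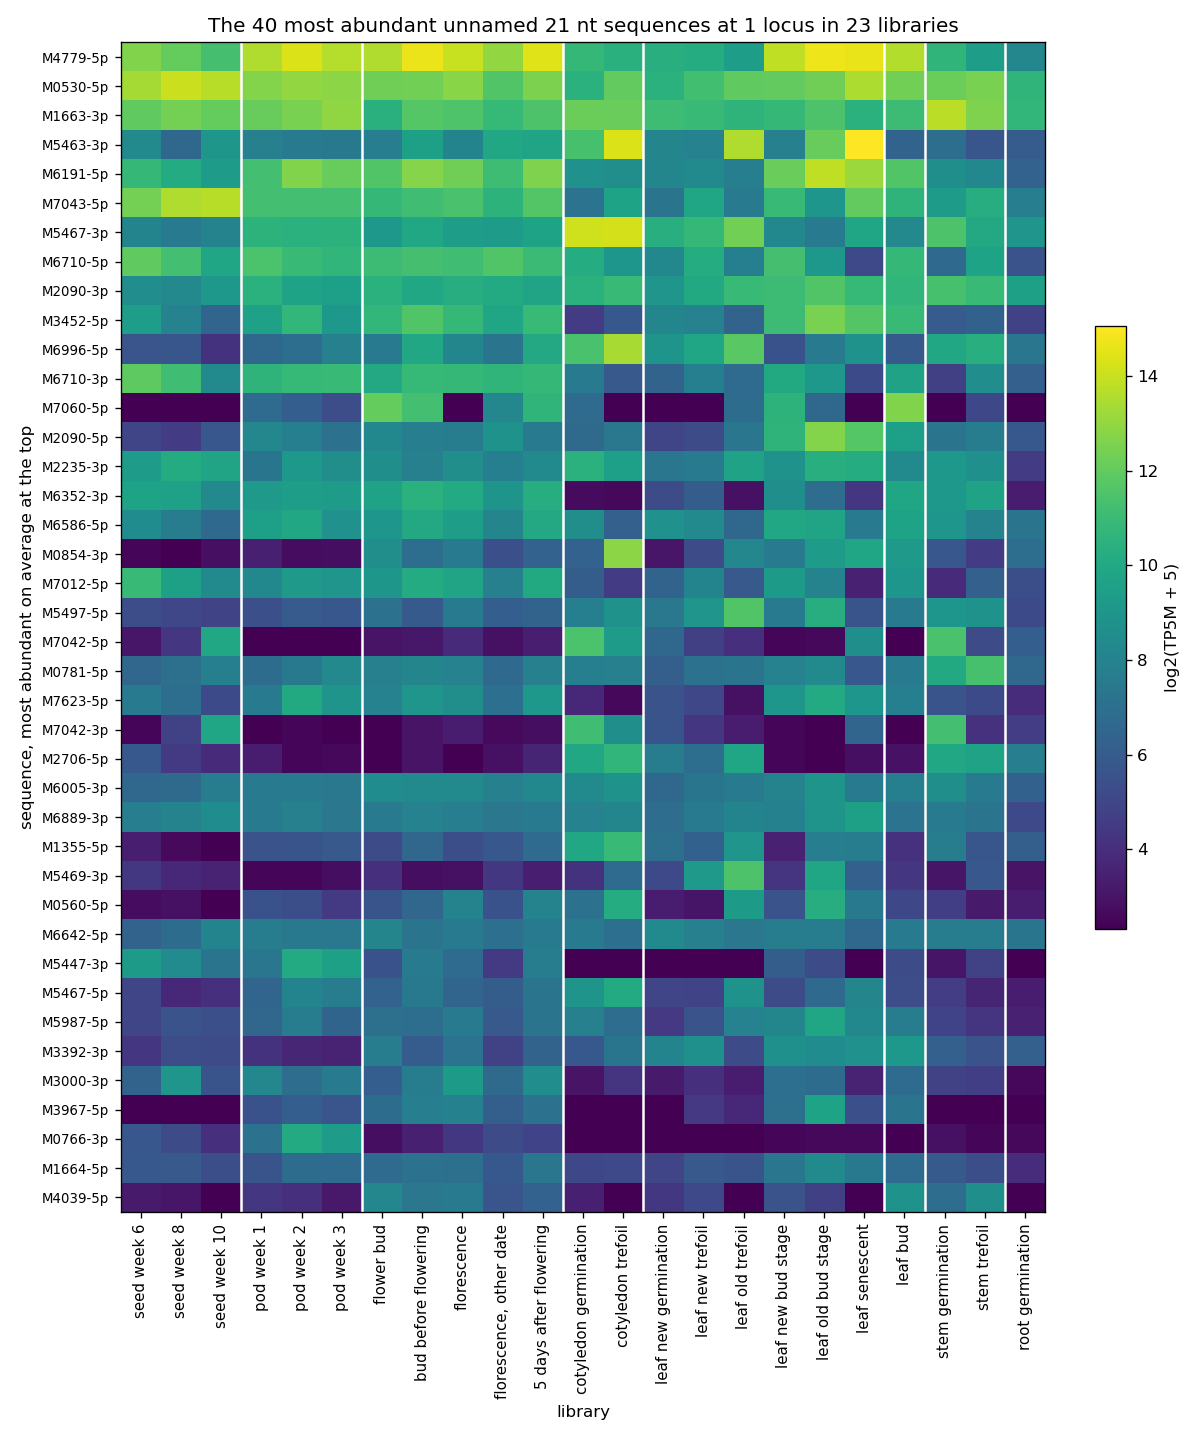
Level of the 40 most abundant of the 119 sequences in each of the 23 libraries, as log2(TP5M + 5), libraries grouped by organ with white lines between organs. M4779-5p is bright in flowers, pods and the leaves from flower bud differentiation on, whereas M5463-3p is brightest in senescent leaf and in the old cotyledon.

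M4779-5p was uneven within leaves. It had 1253 TP5M in new leaf at germination, 1182 and 677 in new and old trefoil leaf, but 14551 and 27159 in new and old leaf at flower bud differentiation and 25852 in senescent leaf. M3452-5p, also of miR1507, had 280, 246 and 76.9 TP5M in the 3 earlier leaves and 2120, 5772 and 3232 in the 3 later ones. The root had the lowest M4779-5p value of all libraries, 288 TP5M.

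M5463-3p was concentrated in old organs. It had 34200 TP5M in senescent leaf, 21173 in old trefoil cotyledon and 11806 in old trefoil leaf, against 2654 in the germination cotyledon and 248 in new trefoil leaf. Old leaf at flower bud differentiation had 4358 TP5M and new leaf of that stage 232. M5463-3p was at or below 969 TP5M in every flower, pod, seed, stem and root library and in the leaf bud. Each of these pairs of old and new organs is 1 library against 1, with no test.

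Breadth differed as much as level. Of the 119, 55 were above 0 in all 23 libraries, 33 reached 5 TP5M in all of them, and 10 did so in 5 libraries or fewer, with a median of 16 libraries. Among all 595 sequences that median was 17. The mean of 17 sequences fell under 5 TP5M without their highest library. Highest values gathered in 4 libraries: old leaf at flower bud differentiation held 21 of them, senescent leaf 16, old trefoil cotyledon 13 and germination cotyledon 10. Together that is 60 of 119 sequences (50.4%), beside 167 of the other 476 (35.1%). No sequence of the 119 was highest in the week 1 pod, where 23 of the other 476 were. The 4 libraries and that pod were picked from the counts of the 119, which favours a gap, and no gap was tested.

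First bases were counted next, since they take part in the sorting to Argonautes. U opened 34.5% of the 119 sequences, A 27.7%, C 12.6% and G 25.2%. Among the 86 named 21 nt sequences at 1 locus and the same level, U opened 53.5% and G 8.14%, and among 102 unnamed 22 nt sequences at 1 locus, U opened 58.8% and G 8.82%. Among the 742 unnamed 21 nt sequences at any level, U opened 49.6% and G 9.43%. These shares are counts of sequences and were not tested.

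The shares were unequal between sequences with different places at their locus. At 44 of the 119 a more abundant sequence stood on the same hairpin or on one overlapping it, and of these 15.9% began with U and 36.4% with G. Of the 53 that were the most abundant of several at their locus, 41.5% began with U and 20.8% with G. The 22 that were alone at their locus had 54.5% U and 13.6% G. A more abundant sequence can stand at several loci, as miR166a-3p does at those of M0560-5p and M3828-5p. Its level is not split between loci, so the rank at a single locus is uncertain. Sequences were placed by coordinates, which 29 of the 3933 entries lack, so the rank can also miss a more abundant sequence. M1663-3p counts as the most abundant at its locus, over M1663-5p (33.8 TP5M). Yet gso-miR2109, which is M1663-5p without its last base, averaged 4392 TP5M and was not placed there.

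**Figure D2:**
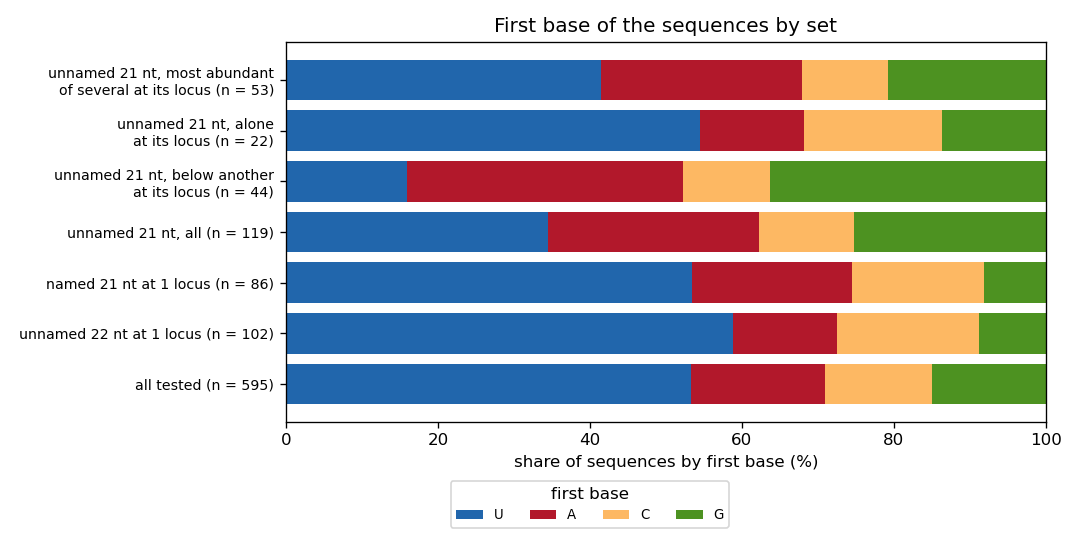
Share of sequences (%) by first base, for the unnamed 21 nt sequences split by their place at the locus, for all 119 and for 3 comparison sets, with the number of sequences in brackets. U takes 15.9% of the sequences that stand below another at their locus and 53.3% of all 595 tested.

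Links to named miRNAs were common. Of the 119, 23 shared 18 nt in a row with a named mature sequence, a further 40 lay on a hairpin that overlaps a named one on the same strand, and 56 had neither link. These links reach 38 families, with 6 sequences of miR166, 5 of miR169, 4 of miR156 and 3 each of miR1507 and miR394. They say nothing of targets. Median levels were 182, 41.9 and 18.8 TP5M in the sets of 23, 40 and 56.

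Of the 56 unlinked sequences, 3 came within 3 mismatches of a named one. M5469-3p differs from miR399a by A13G, M5469-5p from miR399k-5p by T2A, and M7042-3p from miR156i-3p by G9T and T10A, with positions counted from 1 at the 5′ end of the unnamed sequence. M5469-3p is shown because it is 1 base away from miR399a, a family known to target the phosphate regulator PHO2. The capitals mark that base.
M5469-3p: tgccaaaggagaAttgccctg
miR399a: tgccaaaggagaGttgccctg
M5469-3p lies at chr15:6547386-6547481 (plus) and miR399a at chr10:46275312-46275405 (plus).

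The opposite arm of the hairpin was in the table for 91 of the 119 (76.5%), against 30.4% of the unnamed 22 nt sequences. It was sought only for sequences with a 5p or 3p label, which all of these carry. Of the 86 named 21 nt sequences only 16 had a 5p and 31 a 3p label, and 40 had an opposite arm. Their share is thus not comparable. For 58 of the 91 the best pairing of the arms left an overhang of 2 nt, and 55 of these formed 15 pairs or more, G:U pairs included. Hairpins were 72 to 363 nt long, with a median of 115, and the stretch between the arms ran from 15 to 300 nt, with a median of 47. The 119 sequences lay on 107 hairpins, 63 on the 5p and 56 on the 3p arm, with 1 to 12 sequences on each of the 20 chromosomes, most on chromosome 18, and 1 on a scaffold. M7042 and M7043 lay 10215 bp apart on chromosome 18 and M1663 and M1664 46439 bp apart on chromosome 4.

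Among the 119 there were 12 pairs of sequences that differ at no more than 2 bases. Since each of them has a position of its own, the pairs show the level of each copy in each library, but the split between copies is uncertain because the treatment of reads with a mismatch is not given in the sources used here. They are shown because their levels parted from each other, and the capitals mark the bases that differ.
M0530-5p: ggaatgggctgattgggaagC
M7043-5p: ggaatgggctgattgggaagT
M6996-5p: taggactatggtttggacGag
M2706-5p: taggactatggtttggacAag
M0560-5p: ggaatgtcGtCtggttcgaga
M3828-5p: ggaatgtcGtTtggttcgaga
M1341-5p: ggaatgtcAtCtggttcgaga
M7060-5p: tagccaaggAtgaCttgccgg
M5497-5p: agccaaggGtgaTttgccggc
The hairpins of M6996 and M2706 lie at chr18:50625467-50625711 (minus) and chr7:16726884-16727142 (minus). Those of M0560, M3828 and M1341 lie at chr2:14340764-14340868 (plus), chr10:2905318-2905422 (minus) and chr3:39519830-39519952 (minus). M7060 and M5497 stand at chr19:2809359-2809666 (plus) and chr15:14150066-14150188 (plus).

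M4779-5p and M6191-5p, which differ by G5A, moved together, and M4779-5p was higher in all 23 libraries, by 0.90 to 2.30 on the log2(TP5M + 5) scale. Their levels had a Pearson correlation of 0.99 over the 23 libraries.

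M0530-5p and M7043-5p, which differ by C21T, did not keep a fixed ratio. M0530-5p had 10408, 17069 and 13206 TP5M in seeds of weeks 6, 8 and 10, and M7043-5p had 5365, 11904 and 13340. In old trefoil leaf M0530-5p had 3912 TP5M and M7043-5p 179. On the log2 scale the difference ran from −0.01 in the week 10 seed to 4.41 in old trefoil leaf.

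M6996-5p and M2706-5p, linked to miR5770, were near each other in stem, root and the week 6 seed and far apart in flowers. M6996-5p had 981 and M2706-5p 969 TP5M in the germination stem. In the bud before flowering M6996-5p had 949 TP5M and M2706-5p 2.85. The gap was not limited to flowers. In pods M6996-5p had 89.5 to 226 TP5M and M2706-5p 0.89 to 5.06, and in senescent leaf they had 458 and 2.06. Old leaf at flower bud differentiation had 180 TP5M of M6996-5p and 0 of M2706-5p. The log2 difference ran from −0.42 in root to 6.92 in that bud.

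M0560-5p, M3828-5p and M1341-5p come from 5p arms of miR166 hairpins, whose 3p arm is the known product. M0560-5p was highest in old leaf at flower bud differentiation (1202 TP5M) and old trefoil cotyledon (1174). M3828-5p was highest in florescence (434) and 5 days after flowering (427) and had 35.3 TP5M in old leaf at flower bud differentiation and 29.5 in old trefoil cotyledon. M1341-5p was highest in the week 2 pod (56.8) and the bud before flowering (52.2).

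M7060-5p and M5497-5p, of miR169, a family that targets NF-YA factors, differ by A10G and C14T, with positions counted on M7060-5p, and by a shift of 1 base. M7060-5p had 6453 TP5M in the leaf bud, 4206 in the flower bud and 2409 in the bud before flowering, and M5497-5p had 188, 129 and 56.9 there. In old trefoil leaf M5497-5p had 3086 TP5M and M7060-5p 107. M7060-5p was at 0 in florescence on 1 date and had 295 TP5M on the other.

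**Figure D3:**
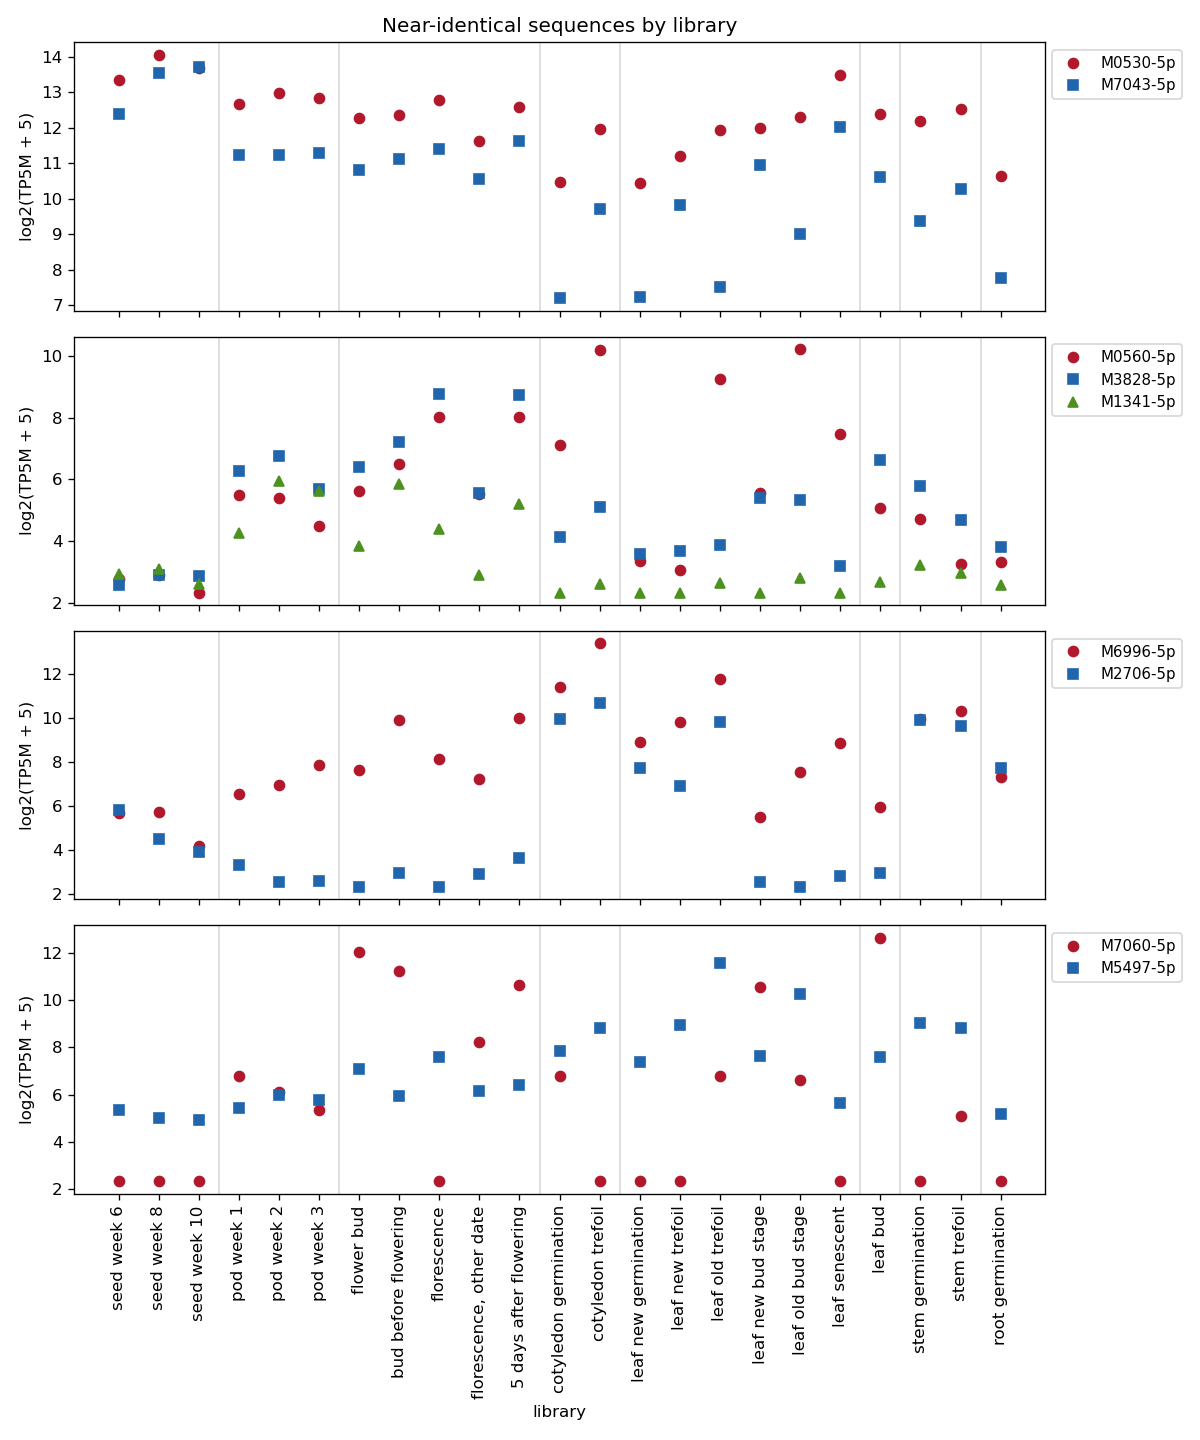
Levels of near-identical sequences in each library as log2(TP5M + 5), 1 panel per set, grey lines between organs. M0530-5p and M7043-5p meet in the week 10 seed and part in old trefoil leaf. M6996-5p and M2706-5p meet in the germination stem and part in flowers, pods and senescent leaf, among others.

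On 12 hairpins both arms were among the 119. The duplex of M6710, at chr18:52797186-52797492 (plus), is shown as the one with most pairs, 19 of 19, and the capitals mark the paired bases.
M6710-5p: TCTGAAGTATTGTCCCAATga
M6710-3p: ATTGGGACAATACTTTAGAta
M6710-5p averaged 1516 TP5M and M6710-3p 1015, and the 5p arm was higher in 19 of the 23 libraries. On the log2 scale 5p minus 3p ran from −0.64 in root to 3.11 in old trefoil cotyledon. M6710-5p had 510 TP5M and M6710-3p 54.8 in that cotyledon, whereas the week 6 seed had 3900 and 3774 TP5M.

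One arm stayed above the other in all 23 libraries on 5 of the 12 hairpins, and the 5p arm had the higher mean on 6. On M5467 the 3p arm was higher throughout, with a mean of 2618 TP5M beside 160 for the 5p arm. Its log2 difference of 5p minus 3p ran from −6.83 in the germination stem to −0.86 in old leaf at flower bud differentiation. On M5497 the 5p arm was higher throughout (339 beside 24.6 TP5M), and on M2388 too (61.1 beside 11.8), while M6889-3p (237 beside 38.5) and M1625-3p (59.4 beside 35.4) were higher throughout on the 3p side.

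On M2090, a hairpin of miR166, the more abundant of the 2 sequences was not the same in all leaves. Each arm is read here from 1 sequence. At this locus the 20 nt miR166p (mean 1035 TP5M) also stands and is not counted, so the whole output of the arms was not compared. M2090-3p had 1063 TP5M and M2090-5p 34.2 in new trefoil leaf, but in old leaf at flower bud differentiation M2090-5p had 6547 TP5M and M2090-3p 3144. Senescent leaf had 3314 TP5M of M2090-5p and 1826 of M2090-3p. In the other 21 libraries M2090-3p was higher. M7042, whose 5p arm shares a run with miR156, averaged 338 TP5M on the 5p and 271 on the 3p arm, with a Pearson correlation of 0.98 between the arms over 23 libraries. M7042-5p had 2775 TP5M in the germination cotyledon and 2750 in the germination stem, and M7042-3p had 2253 and 2444. The 5p arm was higher in 17 libraries and the 3p arm in 2. The difference of 5p minus 3p ran from −0.49 in the week 8 seed to 2.21 in senescent leaf, where M7042-5p had 408 TP5M and M7042-3p 84.4.

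**Figure D4:**
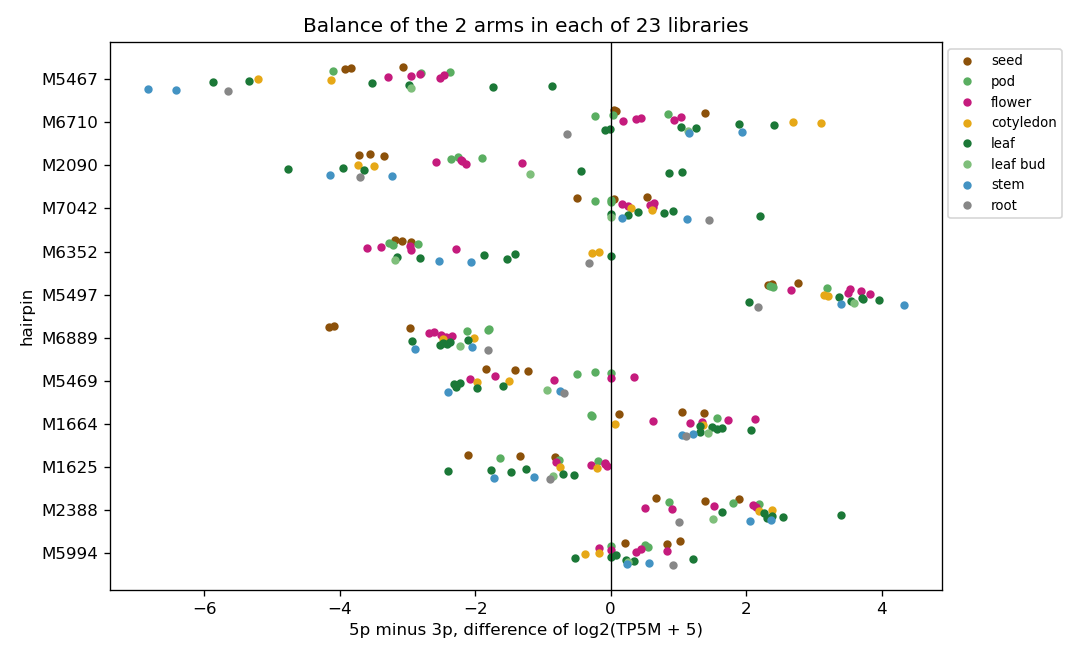
Balance of the arms on the 12 hairpins with both arms among the 119, as the difference of log2(TP5M + 5), 5p minus 3p, 1 point per library coloured by organ. M5467 lies left of 0 and M5497 right of 0 in all libraries, and M2090 crosses 0 in 2 leaves.

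Differences between organs were tested with limma on log2(TP5M + 5) over all 595 sequences, with Benjamini-Hochberg adjustment at 0.05, and log2 differences below are on that scale, which understates the change of low sequences. Of the 119, 43 (36.1%) differed among seed, pod, flower and leaf in limma's moderated F-test, where 39.5% of all 595 did. At least 1 of the 5 contrasts was called for 50 of the 119 (42.0%). That share was not counted over all 595, so it does not set the 119 apart. Each call was repeated under 25 other settings. A fit with the stage as a block, possible for flower and cotyledon against leaf alone, is not among these 25 and is given by itself.

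Flower was set against leaf as a reproductive against a vegetative organ. In flower 18 of the 119 rose and 7 fell, and 24.9% of all 595 sequences were called (21.2% higher and 3.7% lower). The median log2 difference was 0.02 for the 119 and 0.43 for all 595. With TMM scaling the median of all 595 was 0, 13 rose and 14 fell, and the median of the 119 was −0.38. In edgeR 12 rose and 10 fell, and in edgeR with TMM 10 rose and 31 fell, with medians of −0.97 for the 119 and −0.39 for all 595, so the excess of rises over falls depends on the scaling. With a term for the 6 libraries 22 rose and 3 fell. Over all 595 sequences TMM scaling called 99, edgeR 95, edgeR with TMM 127 and that term 149. Flower and leaf share only the stage of flower bud differentiation, with 1 flower bud library. With stage as a block none of the 119 was called there in limma (8 had an unadjusted p under 0.05, and 7 of all 595 were called), and 23 of the 25 called above kept their direction. Of the 40 sequences linked by an overlapping hairpin 12 rose and 1 fell, of the 23 that share a run 2 rose and 1 fell, and of the 56 unlinked 4 rose and 5 fell. The libraries of flower and leaf did not overlap for 8 of the 119 (6.72%), beside 9.92% of all 595.

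M6352, a hairpin of miR394, which targets the F-box gene LCR in stem cell maintenance, rose on both arms. M6352-3p had 807, 1386, 1103, 485 and 1242 TP5M in flower bud, bud before flowering, florescence, florescence on the other date and 5 days after flowering, against 2.40, 47.9 and 404 TP5M as the lowest, median and highest of leaf. All flower values lay above all leaf values. The log2 difference was 4.20 ± 0.74 SE, a ratio of means of 9.56 (limma, adjusted p = 0.000721). M6352-5p averaged 113 ± 28.8 TP5M in flower and 13.4 ± 14.4 in leaf (SD, n = 5 and 6; log2 2.96 ± 0.44 SE, limma adjusted p = 0.000374), also with no overlap.

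M3828-5p, of miR166, averaged 225 ± 191 TP5M in flower and 16.8 ± 15.2 in leaf (log2 3.16 ± 0.58 SE, limma adjusted p = 0.000836), with no overlap. M1341-5p, its near-identical partner, averaged 22.4 ± 20.0 TP5M in flower and 0.527 ± 0.851 in leaf (log2 1.98 ± 0.41, limma adjusted p = 0.00243). M0560-5p, which differs from M3828-5p at 1 base, was not called. M3160-5p, on a hairpin of miR395, a family that answers to sulfate supply, had 227, 165, 48.7, 3.71 and 19.3 TP5M in the 5 flower libraries as ordered above, against 0.98, 1.42 and 13.2 as the lowest, median and highest of leaf. Flower and leaf overlapped for it (log2 2.82 ± 0.61, limma adjusted p = 0.00297). Both arms of M6352, M3828-5p, M1341-5p and M3160-5p kept their call under all 25 other settings, none of which separates organ from stage. With stage as a block, where flower is 1 library, the log2 difference was 1.89 for M6352-3p and 1.905 for M6352-5p. It was 1.03 for M3828-5p, 1.29 for M1341-5p and 4.48 for M3160-5p.

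Both arms of M6710 rose, M6710-3p with 1609 ± 339 TP5M in flower and 338 ± 394 in leaf (log2 3.08 ± 0.85, limma adjusted p = 0.0135) and M6710-5p with 2409 ± 445 and 799 ± 930 (log2 2.58 ± 0.83, limma adjusted p = 0.0271). Adjusted p-values reached 0.0696 for M6710-3p, in edgeR, and 0.229 for M6710-5p, among 9 settings that ended its call. With stage as a block the log2 differences were 0.42 for M6710-3p and 0.82 for M6710-5p. M4039-5p, on a hairpin that overlaps one named miR319, shares bases 2 to 8 with miR4414 and differs from miR4414-5p by T18C. It averaged 151 ± 97.5 TP5M in flower and 18.4 ± 17.0 in leaf (log2 2.94 ± 0.62, limma adjusted p = 0.00259), and edgeR gave up to 0.0854. The calls of M3000-3p (log2 3.00) and M5447-3p (log2 2.98) also ended in edgeR, and with stage as a block their differences were −0.77 and −0.11. The call of M7012-5p (log2 2.54) ended under 11 of the 25 settings, and with stage as a block its difference was 0.43.

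M5469-3p, the sequence next to miR399a, fell most. It had 11.3, 1.90, 2.44, 16.1 and 5.52 TP5M in the 5 flower libraries, against 14.7, 334 and 2885 TP5M as the lowest, median and highest of leaf. The log2 difference was −4.22 ± 1.02 SE (limma, adjusted p = 0.00668) and held under all 25 other settings, and 1 flower value lay above the lowest leaf value. With stage as a block the log2 difference of M5469-3p was −3.06. Leaf itself was uneven, with 2885 TP5M in old trefoil leaf and 14.7 in new leaf at flower bud differentiation. Its opposite arm M5469-5p averaged 1.43 ± 1.66 TP5M in flower and 152 ± 226 in leaf (log2 −2.96 ± 0.90, limma adjusted p = 0.0211), and the call ended without the filter on low values and with the term for 6 libraries (adjusted p up to 0.152). M7631-3p fell by 1.99 (log2) and the call ended with that term (adjusted p = 0.0934). M5497-3p, M0539-3p, M4492-5p and M1974-3p fell by 2.01, 1.74, 1.56 and 1.02 and lost the call under 4 or 5 settings each.

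Pod was set against flower, the organ it grows from. In pod 1 of the 119 rose and 3 fell, and 2.02% of all 595 were called (0.672% higher and 1.34% lower). The median log2 difference was −0.12 for the 119 and −0.17 for all 595, and TMM scaling gave 2 higher and 1 lower. A pseudocount of 1 gave 2 and 2, and edgeR 1 and 0 with either scaling. With the term for 6 libraries 1 rose and 1 fell. The count changed with single libraries: it was 1 without the week 3 or the week 2 pod, 2 without flower bud, bud before flowering or florescence, and 8 without florescence on the other date. Over all 595 sequences these omissions gave 6 and 6, then 10, 9 and 9, and 35. TMM scaling called 11 of all 595, a pseudocount of 1 gave 15, edgeR 4, edgeR with TMM 5 and the term for 6 libraries 9. The 2 organs did not overlap for 22 of the 119 (18.5%), and for 18.5% of all 595.

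M0766-3p lies on the hairpin of miR1512b, at chr2:8618688-8618782 (minus), and is shown with M5447-3p of miR394 because both were also higher in seed than in leaf. The capitals mark bases 2 to 8.
M0766-3p: gCTTTAAGaatttcagttatg
M5447-3p: aGTTCTGTtgtctgctctttg
M5447 stands at chr14:48984857-48985000 (minus). M0766-3p had 134, 1119 and 624 TP5M in pods of weeks 1, 2 and 3, against 1.89, 5.69, 15.8, 33.4 and 24.8 TP5M in the 5 flower libraries. All pods lay above all flowers (log2 4.70 ± 0.60 SE, a ratio of means of 38.3, limma adjusted p = 0.000138), and the call held under all 25 other settings, with adjusted p-values up to 0.036.

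M4039-5p fell to 15.2, 11.5 and 4.10 TP5M in pods of weeks 1, 2 and 3, against 151 ± 97.5 TP5M in flower (SD, n = 5; log2 −3.17 ± 0.75, limma adjusted p = 0.0295), and the call ended under 12 settings. M2450-5p, of miR171, which targets GRAS genes of the HAM group, fell to 0.84, 0 and 0 TP5M in pods of weeks 1, 2 and 3, against 46.0 ± 34.3 TP5M in flower (log2 −2.85 ± 0.61, limma adjusted p = 0.0109). Leaving out the week 3 or the week 2 pod, the term for 6 libraries and edgeR ended that call, with adjusted p up to 0.0894. M4022-5p fell by 1.59 (log2) and lost its call under 16 settings.

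Seed was set against pod, the organ that encloses it, at later weeks, so organ and age change together. In seed 2 of the 119 rose and 9 fell, and 16.3% of all 595 were called (4.03% higher and 12.3% lower). The median log2 difference was −0.48 for the 119 and −0.64 for all 595, but TMM scaling gave medians of 0 and −0.16 with 7 higher and 4 lower. In edgeR 4 rose and 7 fell, and in edgeR with TMM 5 rose and 4 fell. With the term for 6 libraries 3 rose and 1 fell, and the medians were 0.13 and −0.12, so the excess of falls over rises was lost under both TMM settings and under that term. Leaving out a single library gave 5 calls for the week 10 seed and for the week 2 pod, 6 for the week 8 seed and 7 for the week 3 pod. Over all 595 sequences these omissions gave 58, 64, 69 and 78. TMM scaling called 91 of all 595, edgeR 84, edgeR with TMM 69 and the term for 6 libraries 17. Seed and pod did not overlap for 52 of the 119 (43.7%), beside 50.1% of all 595.

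M7631-3p, with no named relative, had 44.1, 65.2 and 134 TP5M in seeds of weeks 6, 8 and 10, against 3.38, 0.89 and 8.19 TP5M in pods (log2 3.17 ± 0.68, limma adjusted p = 0.00356). All seeds lay above all pods, and the call held under all 25 other settings.

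M0766-3p fell to 49.5, 33.2 and 11.2 TP5M in seeds of weeks 6, 8 and 10, against the pod values above (log2 −3.84 ± 0.67 SE, limma adjusted p = 0.000956), and this held under all 25 other settings. M3828-5p averaged 1.83 ± 0.811 TP5M in seed and 73.9 ± 27.9 in pod (SD, n = 3 each; log2 −3.47 ± 0.78, limma adjusted p = 0.0042), and M1341-5p 2.46 ± 1.24 and 38.4 ± 21.8 (log2 −2.39 ± 0.56, limma adjusted p = 0.0054). The term for 6 libraries ended both calls, with adjusted p = 0.369 for M3828-5p and 0.199 for M1341-5p. Both arms of M5467, M1355-5p of miR408, a copper-responsive family, M3165-5p, M0668-5p and M2634-5p fell by 1.78 to 4.09 and each lost the call with that term and under 5 or more other settings. M2634-5p was at 0 in all seeds and is one of the sequences found only in the 6 libraries.

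Seed was also set against leaf. In seed 9 of the 119 rose and 14 fell, and 16.3% of all 595 were called (6.72% higher and 9.58% lower). The median log2 difference was −0.61 for the 119 and −0.38 for all 595. TMM scaling gave −0.36 and −0.20 with 18 higher and 14 lower, and the term for 6 libraries 10 higher and 5 lower. EdgeR gave 11 higher and 26 lower, and edgeR with TMM 16 and 23. The count was 14 without the week 10 seed and 11 without the week 8 or the week 6 seed. Over all 595 sequences these omissions gave 69, 56 and 62. TMM scaling called 122 of all 595, edgeR 160, edgeR with TMM 149 and the term for 6 libraries 62. Seed and leaf did not overlap for 21 of the 119 (17.6%), beside 16.1% of all 595.

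M5447-3p of miR394 had 614, 345 and 146 TP5M in seeds of weeks 6, 8 and 10, against 0 in 4 of the 6 leaves and 32.4 and 62.7 TP5M in old and new leaf at flower bud differentiation. All seeds lay above all leaves (log2 4.89 ± 0.95 SE, limma adjusted p = 0.00168). M7043-5p averaged 10203 ± 4251 TP5M in seed and 1314 ± 1549 in leaf (SD, n = 3 and 6; log2 3.78 ± 0.84, limma adjusted p = 0.00415). Both calls held under all 25 other settings.

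M0530-5p, the partner of M7043-5p, averaged 13561 ± 3345 TP5M in seed and 4701 ± 3536 in leaf (log2 1.80 ± 0.50 SE, limma adjusted p = 0.0188). Its call ended without the week 10 or the week 8 seed, with adjusted p up to 0.109. M6352-3p (643 ± 276 TP5M in seed and 105 ± 152 in leaf, log2 3.54) and M6352-5p (70.3 ± 28.0 and 13.4 ± 14.4, log2 2.26) rose here as well, and both held under all 25 settings, as did M0766-3p (31.3 ± 19.2 and 0.463 ± 0.515, log2 2.57). M6710-3p (log2 2.94) lost its call under 17 settings, and M1663-3p (log2 1.24) under 5.

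M1355-5p fell to 5.40, 1.19 and 0 TP5M in seeds of weeks 6, 8 and 10, against 6.20, 164 and 487 TP5M as the lowest, median and highest of leaf (log2 −4.09 ± 0.84 SE, limma adjusted p = 0.00232), a call that held under all 25 settings. M5497-5p fell by 3.49 (log2) and lost its call with the term for 6 libraries (adjusted p = 0.126), and M3392-3p by 3.01 and lost it without the week 6 seed (0.0539). M0854-3p of miR4416, M6996-5p, both arms of M5469, M0560-5p, M3967-5p of miR172 and M5497-3p fell too, with log2 differences of −4.64 to −2.59, and each of them lost the call without any 1 of the 3 seeds.

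Cotyledon, the storage leaf of the seedling, was set against leaf with 2 libraries. In cotyledon 11 of the 119 rose and 2 fell, and 9.75% of all 595 were called (7.9% higher and 1.85% lower). The median log2 difference was −0.28 for the 119 and −0.21 for all 595. TMM scaling gave 10 higher and 4 lower and the term for 6 libraries 8 higher and 0 lower. A pseudocount of 1 gave 9 higher and 7 lower, edgeR 9 and 6, and edgeR with TMM 7 and 8, so the excess of rises was lost in edgeR with TMM. Both cotyledons share their stage with leaves. With stage as a block 3 of the 119 rose and 0 fell, beside 13 calls among all 595. All 13 of the 119 called above kept their direction there. The count was 3 without the trefoil cotyledon, 8 without the germination cotyledon and 8 without new leaf at flower bud differentiation. Over all 595 sequences these omissions gave 16, 27 and 40. TMM scaling called 61 of all 595, a pseudocount of 1 gave 56, edgeR 61, edgeR with TMM 64 and the term for 6 libraries 37. Cotyledon and leaf did not overlap for 21 of the 119 (17.6%), beside 15.6% of all 595.

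M4977-3p, which shares a run with miR397, a family that targets laccases, had 53.4 and 45.3 TP5M in the cotyledons of germination and trefoil, against 0, 2.14 and 8.41 TP5M as the lowest, median and highest of leaf (log2 2.93 ± 0.43 SE, limma adjusted p = 0.000397). Its call held under the 25 settings, and with stage as a block the difference was 2.61 ± 0.42 (limma adjusted p = 0.0638). M5467-3p had 17848 and 19236 TP5M in the same cotyledons, against 184, 1115 and 5151 TP5M in leaf (log2 4.32 ± 0.86, limma adjusted p = 0.00376), and without the trefoil cotyledon the adjusted p was 0.0552. M1377-3p, of miR156, had 106 and 8.43 TP5M and was at 0 in all 6 leaves, and without the germination cotyledon its adjusted p was 0.302. Both arms of M7042, M2706-5p, M1355-5p, M5467-5p and M2436-3p also rose, by 2.45 to 5.81 (log2), and each lost the call at least without the trefoil cotyledon. With stage as a block both arms of M7042 were called, with differences of 5.14 for M7042-3p and 4.88 for M7042-5p. M3452-5p of miR1507 fell, with 19.3 and 52.7 TP5M in the cotyledons, against 76.9, 1200.2 and 5772 TP5M in leaf (log2 −4.39 ± 1.24, limma adjusted p = 0.0314), and lost its call under 5 settings. M4492-5p of miR172 fell by 2.15 (log2) and lost its call under 17.

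**Figure D5:**
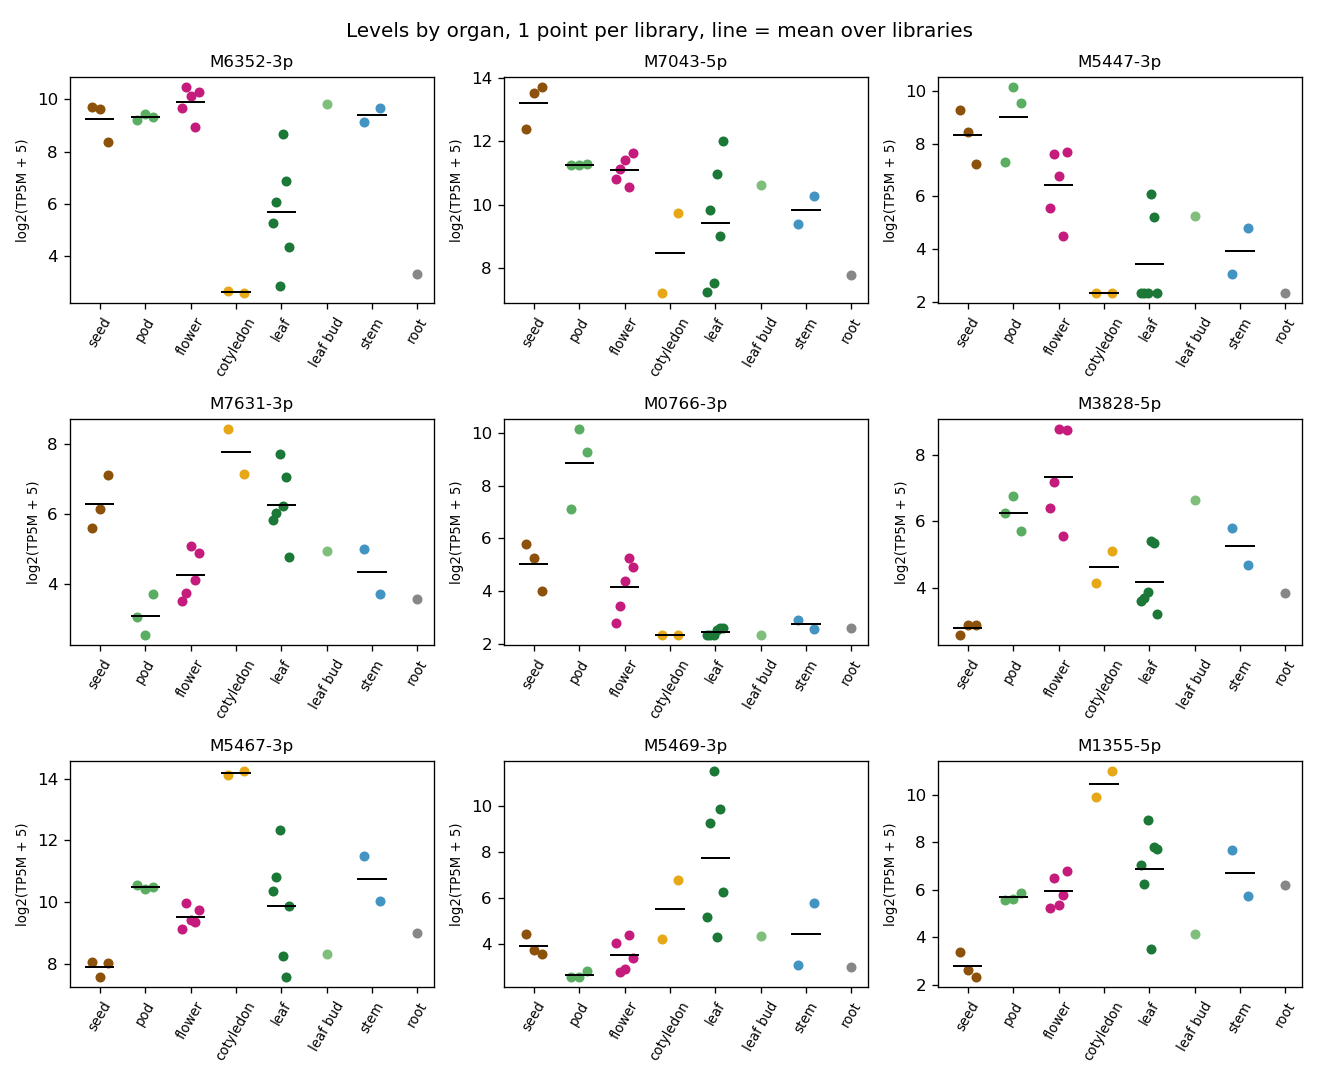
Levels of 9 sequences by organ as log2(TP5M + 5), 1 point per library and a line at the mean. M0766-3p stands highest in pods, M5467-3p in cotyledons and M5469-3p in leaves, while M6352-3p is low in cotyledon, root and most leaves.

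The sequences most like the 3 most abundant ones were sought among all 595, by Pearson correlation of log2(TP5M + 5) over the 23 libraries, which share the scaling to total tags. M4779-5p was most like M6191-5p (0.99), M1934-3p of miR1509 (0.93) and miR2118a-5p (0.93). M0530-5p was most like M7043-5p (0.89), miR862a (0.69) and M5447-3p (0.68). M1663-3p was most like gso-miR2109 (0.84), miR2109 (0.71) and M1663-5p (0.69), the opposite arm of its own hairpin.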

How the data were processed

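Small RNA of 23 organ and stage libraries was measured by sequencing on an Illumina HiSeq instrument after size selection and PCR, per the labels' protocols, and reads were not processed again here. The deposited signal was scaled by the authors to tags per 5000000 tags (TP5M), per the file headers. The submitters' processing notes name BWA, with no role or version. Neither genome build nor counting rule is given in the sources used here. Columns were matched to libraries by the number in each title. A second number, in brackets, would match them otherwise; the mean correlation of log2 values within and between organs was 0.833 and 0.729 with the title number and 0.762 and 0.739 with the bracket number.

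Entries with the same sequence were merged at the highest value. The step of the low values gave the worth of 1 read (0.741 to 1.38 TP5M). Of 28838 values of up to 200 reads, 28838 (100%) were whole within 0.1 reads. For 595 sequences with a mean of 5 TP5M or more, log2(TP5M + 5) was fitted in limma 3.58.1 (R 4.3.3) as organ means over the 23 libraries, with a trended eBayes prior and p-values adjusted by Benjamini-Hochberg at 0.05. A count test, edgeR 4.0.16 quasi-likelihood on the recovered reads, called 22 of the 119 for flower minus leaf, where limma called 25. Both fits were first tested on simulated data. Other settings were TMM scaling, a pseudocount of 1, no filter on low values, leaving out each library and, added after seeing the data, a term for 6 libraries, edgeR with TMM and, for cotyledon and flower against leaf, stage as a block.

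Relation to a named miRNA means 18 nt in a row shared with a named mature sequence or, failing that, a hairpin overlapping a named one on the same strand. Named sequences are the 10 most abundant, up to 10 called higher and 10 lower per contrast by size of the log2 difference, hairpins with both arms among the 119, those with 90% of signal in 1 library, those next to the limit of 5 TP5M, and those most like the top 3. Others, among them the near-identical pairs, the box A matches and examples of single stages, were chosen after their values were seen. The members, lists and tests were chosen with earlier results of these data known. One of the 119 sequences, counted among them, is not reported here by its own values.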

Additional observations from a re-analysis of the deposited data

Results flagged for a closer look

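Some sequences were abundant in stem or root, which enter no comparison above. M0781-5p, linked to miR1523, had 2586 TP5M in the trefoil stem and 1074 in the germination stem, and at most 340 in any library of the compared organs. M6488-3p, of miR156, had 247 TP5M in the germination stem and 0.91 in the trefoil stem, against a highest value of 39.6 in the compared organs, in the week 6 seed. M2849-5p, at chr8:10105804-10105875 (plus) and with no named relative, had 531.7 TP5M in root, against at most 3.71 in the compared organs. It is the only sequence of the 119 with 90% or more of its signal in 1 library. Each of these values comes from 1 library, with no replicate check. No outlying library was found by Dixon's test in 22 groups of named sequences, where chance alone marks about 1 in 20.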

How the results depend on the processing

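The replicate numbers pair no libraries across organs, but 3 stages hold leaf with cotyledon or flower bud. With stage as a replicate block over the 8 libraries of these stages, with 3 residual degrees of freedom, limma called 3 of the 119 for cotyledon minus leaf and 0 for flower minus leaf, where the lone flower bud is assumed to vary like the other libraries. Counts called among the 119 moved as follows. With edgeR and TMM flower minus leaf had 41 (10 higher and 31 lower). Pod minus flower had 1 and seed minus leaf 39 (16 higher and 23 lower) in that setting. Over all 595 sequences it called 127, 5 and 149, where the main fit called 148, 12 and 97. EdgeR alone gave 1 for pod minus flower and 37 for seed minus leaf, beside 4 and 160 of all 595. Without the filter pod minus flower had 2 and cotyledon minus leaf 6, beside 26 and 60 of all 2839. With the term for 6 libraries pod minus flower had 2, seed minus pod 4, seed minus leaf 15 and cotyledon minus leaf 8. Over all 595 sequences the fit with that term called 9, 17, 62 and 37, where the main fit called 12, 97, 97 and 58. Leaving out 1 library gave 17 to 35 for flower minus leaf, 1 to 8 for pod minus flower, 5 to 15 for seed minus pod, 11 to 27 for seed minus leaf, 3 to 17 for cotyledon minus leaf and 32 to 48 for the F-test. Over all 595 sequences the same fits called 108 to 212, 6 to 35 and 58 to 118 for the first 3 of these. The last 3 had 56 to 109, 16 to 81 and 194 to 284 over all 595. The causes were not tested. With stage as a block M5447-3p (−0.11) and M3000-3p (−0.77) changed direction for flower minus leaf, and no other named result did so under any setting. The group held 90 sequences at a limit of 10 TP5M, with U first in 26.7%, and 102 without the highest library of each. Depth limits values under 2.22 to 4.14 TP5M, and PCR copies cannot be told apart.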
